A study of Mus musculus with 1528 samples.

Results

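*Il10* and 5 further genes of anti-inflammatory signalling were followed in bone marrow-derived macrophages (BMDMs), cells grown from mouse bone marrow with the growth factor M-CSF. The 6 genes, *Il10*, *Il10ra*, *Il10rb*, *Il1rn*, *Tgfb1* and *Socs3*, form a list that was chosen with earlier results of these data known. They were matched by symbol to 6 of the 55421 genes in the count table. The cells came from 2 wild-type C57BL/6 mice, taken here as the numbers 1 and 2 in the sample titles; the study also speaks of independent experiments, and mouse and experiment cannot be told apart. Stimulation lasted 24 h, every cell received IL4 and IL13, the IL4+IL13+TNF group received TNF as well, and each cytokine was used at 10 ng/ml, so no group was left unstimulated. Live cells were sorted singly into 4 plates, 02 and 03 for mouse 1 and 04 and 05 for mouse 2, with IL4+IL13 in the upper rows and IL4+IL13+TNF in the lower rows, so an effect of the treatment and of the position on the plate cannot be told apart.

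IL10 is a cytokine that macrophages make to limit inflammation. It binds a receptor of the ligand-binding chain IL10RA and the shared chain IL10RB, and the kinases JAK1 and TYK2 then activate the transcription factor STAT3. SOCS3 is a feedback inhibitor induced by STAT3 that dampens signalling by IL6-type receptors, IL1RN is a secreted antagonist of the IL1 receptor, and TGFB1 is a cytokine secreted in a latent form.

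Of 1524 wells with a known mouse and treatment 1386 passed the filters. Mouse 1 gave 357 cells with IL4+IL13 and 347 with added TNF, and mouse 2 gave 333 and 349. A kept cell held a median of 472319.5 fragments, and each of the 4 sums of cells by mouse and treatment held between 162260282 and 179757666. Smart-seq2, the full-length method used here, carries no molecular identifiers, so intervals cover counting error only. The 7 macrophage markers were found in 27.5% (*Mertk*) to 100% (*Csf1r*) of cells, while the 6 lymphocyte, 4 mast cell and basophil and 5 stromal markers each summed to under 2 CPM (a gene's fragments per 1000000 fragments in genes) in every sum, with *Ncr1* at 0. The 7 neutrophil markers summed to 1.05 and 2.37 CPM with IL4+IL13 and to 1.75 and 5.36 CPM after addition of TNF in mouse 1 and mouse 2, mostly from *S100a8*, found in 14.4% of cells. The 6 dendritic cell markers summed to 8.56 CPM before and 29.9 CPM after addition of TNF in mouse 1, and to 12.9 and 204 CPM in mouse 2. Most of this rise was *Ccr7*, from 0.11 to 20.5 CPM in mouse 1 and from 0.45 to 190 CPM in mouse 2. *Siglech* fell, from 0.72 to 0 CPM and from 2.07 to 0.022 CPM. *Flt3* stayed at 6.94 to 7.36 CPM and was found in 93.1% of cells, and none of the 6 was at 0 in all cells.

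The genes lie apart in mm10. *Il10* spans chromosome 1, 131019845 to 131024974, plus strand, *Il10ra* chromosome 9, 45253837 to 45269149, minus strand, and *Il10rb* chromosome 16, 91406164 to 91425834, plus strand. *Il1rn* spans chromosome 2, 24336853 to 24351494, plus strand, *Tgfb1* chromosome 7, 25687002 to 25705077, plus strand, and *Socs3* chromosome 11, 117966079 to 117970047, minus strand. *Il10rb* overlaps 1 gene model on its own strand, *Gm21970*, and *Il10ra* overlaps 1 model on each strand; the other 4 genes overlap none.

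Sequence upstream of a start site was at hand for 3 of the 6 genes, in RefSeq's GRCm38.p6 table, and is shown for the gene that rose with TNF, *Il1rn*, which has separate starts, and for *Socs3*, whose response differed in sign between the mice. The windows are written 5′ to 3′ on the gene's strand, with up to 250 bases before the start site and stopping at the first annotated exon base. Capitals mark a match to 1 of 3 patterns searched in the 250 bases, each its own reverse complement so that both strands were read: TGANTCA, the form bound by AP-1 factors, and TTCNNNGAA and the same arms with 1 further N between them, spacings bound by STAT factors.
Il1rn, first start, chr2:24336610-24336852, plus: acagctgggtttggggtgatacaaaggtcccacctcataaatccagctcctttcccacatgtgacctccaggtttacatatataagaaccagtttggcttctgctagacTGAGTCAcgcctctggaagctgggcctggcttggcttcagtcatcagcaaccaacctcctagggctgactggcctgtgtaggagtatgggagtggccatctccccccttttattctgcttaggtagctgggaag
Il1rn, second start, chr2:24345041-24345287, plus: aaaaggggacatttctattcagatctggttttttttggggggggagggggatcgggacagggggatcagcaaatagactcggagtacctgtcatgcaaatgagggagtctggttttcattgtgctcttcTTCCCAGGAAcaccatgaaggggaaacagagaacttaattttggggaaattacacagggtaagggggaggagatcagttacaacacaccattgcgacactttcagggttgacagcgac
Socs3, chr11:117969452-117969616, minus: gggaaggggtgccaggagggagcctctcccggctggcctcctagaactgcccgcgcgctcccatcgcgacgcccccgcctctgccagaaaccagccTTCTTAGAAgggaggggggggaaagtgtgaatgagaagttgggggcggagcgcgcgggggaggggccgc

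The AP-1 pattern began 141 bases before the first *Il1rn* start, and the wider STAT pattern began 121 bases before the second start and 201 before a further listed start that shares its window. TTCNNNGAA began 154 bases before the *Socs3* start, and the window of *Tgfb1* held none of these letters. Matches are common: TGANTCA was found in 6.75%, TTCNNNGAA in 7.02% and its wider form in 5.85% of the 32851 upstream windows of the table. A match describes the letters only, and binding was not measured in these files.

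Levels of the 6 genes were far apart. Per length of exons, and with IL4+IL13, the order was *Il10rb* at 103 ± 3.0 CPM per kb (mean ± SD, n = 2 mice), *Il10ra* at 13.7 ± 3.44, *Il10* at 4.94 ± 2.55, *Il1rn* at 2.06 ± 0.81, *Tgfb1* at 1.32 ± 0.94 and *Socs3* at 0.68 ± 0.41. The neighbours from *Il10* down to *Socs3* lay within each other's spread, whereas *Il10rb* and *Il10ra* stood clear. With IL4+IL13+TNF the order was *Il10rb* at 81.5 ± 8.82, *Il10ra* at 10.7 ± 1.85, *Il1rn* at 5.63 ± 1.86, *Tgfb1* at 1.14 ± 0.48, *Socs3* at 1.07 ± 0.57 and *Il10* at 1.05 ± 0.62 CPM per kb, the last 3 of which did not differ beyond their spread.

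*Il10* was lower with TNF on every plate. From IL4+IL13 to IL4+IL13+TNF its level went from 9.30 to 1.73 CPM on plate 02, from 8.36 to 2.13 on plate 03, from 4.20 to 0.65 on plate 04 and from 4.01 to 0.96 on plate 05. The lowest plate with IL4+IL13 stood above the highest with TNF, so the treatments did not overlap, and the ratio with TNF ranged from 0.155 to 0.254 across plates. Both mice showed it, although mouse 1 held more *Il10* than mouse 2 under either treatment (8.83 against 4.11 CPM and 1.95 against 0.81 CPM).

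The log2 fold change of *Il10* over the 4 sums was -2.14 ± 0.64 (SE), with an adjusted p of 0.48 in edgeR's quasi-likelihood test with treatment as the only term (Benjamini-Hochberg, 17034 genes). That fit called 1 gene in all, *Clec4e*, or 0.00587% of the genes tested, and none of the 6 genes. With the mouse as a block, which removes the difference in level between the animals, *Il10* fell by 2.17 on the log2 scale with an SE of 0.27 and an adjusted p of 0.023 in the same test. Genes entered these fits if found in at least 5% of cells of either treatment. *Il10* did so only through IL4+IL13, at 11.8% of cells against 4.31% with TNF (means of 2 mice, no thinning). Without a filter on low genes, the edgeR fit with treatment only gave it an adjusted p of 0.85. No fit with a block was run without the filter. The block fit called 3.82% of the genes tested and 2 of the 6, *Il10* and *Il1rn*. Both were also called by DESeq2 (3.51% of genes called), with adjusted p of 0.012 for *Il10*, and with sums by plate and the plate as a block in edgeR (9.88% called), with adjusted p of 0.0054; plates of 1 mouse share a culture, so that last fit counts the spread between plates and not between mice.

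Fewer cells held *Il10* with TNF. Every cell with enough depth was thinned to 339000 fragments so that detection could be compared, which kept 1250 cells and left out 136 shallower ones. At least 1 *Il10* fragment was found in 41 of 332 IL4+IL13 cells of mouse 1 (12.3%, 95% Clopper-Pearson interval 9.01 to 16.4) and in 12 of 303 cells after addition of TNF (3.96%, 2.06 to 6.82). In mouse 2 it was found in 23 of 309 (7.44%, 4.78 to 11) and 9 of 306 cells (2.94%, 1.35 to 5.51). The mean share went from 9.90% ± 3.47 to 3.45% ± 0.72 (SD, n = 2), or from 11.8% to 4.31% without thinning, and the treatments did not overlap. The exact permutation test gave p = 0.333, the smallest that 2 mice against 2 allow.

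The level in cells with *Il10* is known less well. Among cells with at least 5 *Il10* fragments at equal depth the mean was 126 CPM in 25 cells and 116 CPM in 11 cells with IL4+IL13, and 82.2 CPM in 7 cells and 121 CPM in 1 cell with IL4+IL13+TNF. The 5% of cells with the most *Il10* held 85.4% and 97.4% of the gene's summed CPM with IL4+IL13, and 100% in both mice with TNF. With TNF only 5.19% and 3.44% of cells held any *Il10* fragment before thinning, which by itself sets the share of 100%. *Il10* was thus detected in few cells under either treatment, and whether other cells held it below detection was not tested.

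**Figure D1:**
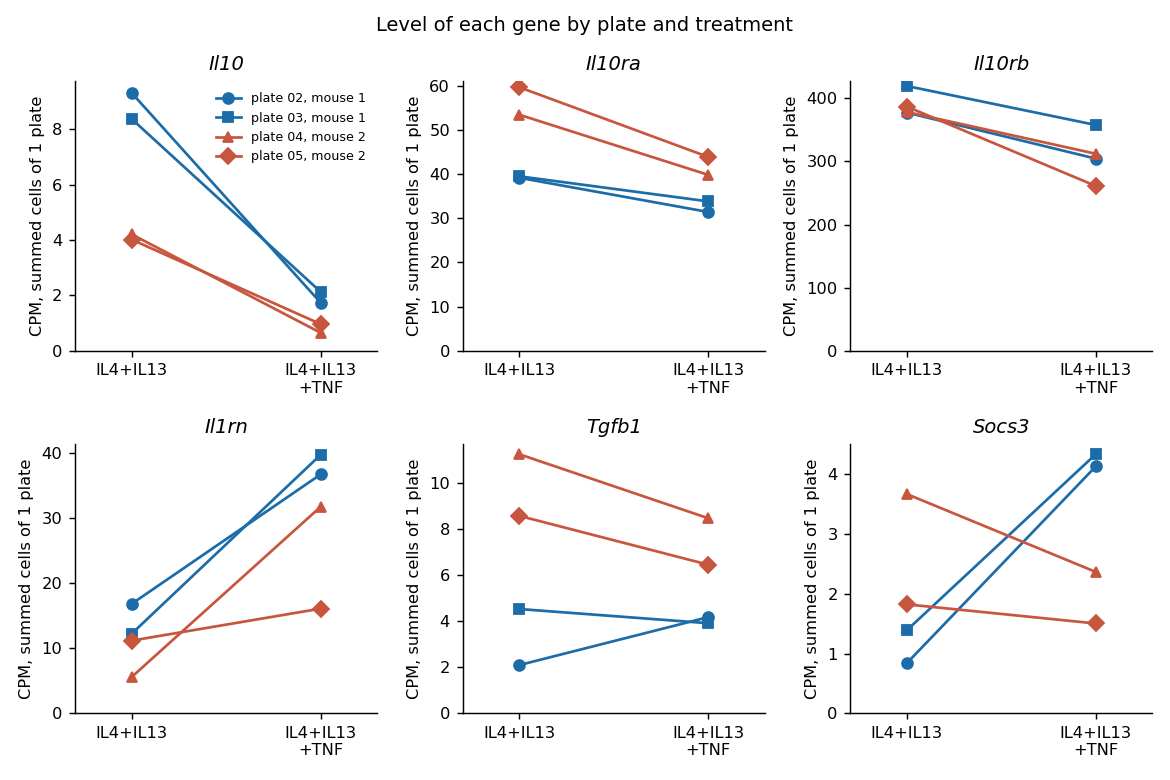
Level of each gene (CPM, linear axis from 0) in the summed cells of each plate under IL4+IL13 and IL4+IL13+TNF, with a line joining the treatments on 1 plate (blue, mouse 1; red, mouse 2). *Il10* runs from 4.01 to 9.30 CPM with IL4+IL13 and from 0.65 to 2.13 with TNF, *Il1rn* rises on 4 of 4 plates, and the *Socs3* lines of the mice cross.

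The receptor genes moved little. *Il10rb*, the shared chain, went from 377 to 305 CPM on plate 02, from 420 to 358 on plate 03, from 378 to 312 on plate 04 and from 387 to 261 on plate 05. It was lower with TNF on 4 of 4 plates and the treatments did not overlap, but its log2 fold change was small at -0.24 ± 0.16 (SE; adjusted p = 0.82, and 0.24 with the mouse as a block, edgeR). At least 1 fragment of *Il10rb* was found in 99.0% to 100% of cells of every mouse and treatment, a measure at its ceiling that could not have risen.

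*Il10ra*, the ligand-binding chain, went from 39.2 to 31.4 CPM on plate 02, from 39.5 to 33.8 on plate 03, from 53.5 to 39.8 on plate 04 and from 59.7 to 43.9 on plate 05. It too was lower on 4 of 4 plates, with overlapping treatments because mouse 2 stood above mouse 1, and its log2 fold change was -0.27 ± 0.26 (adjusted p = 0.89, and 0.33 with the block, edgeR). The share of cells with *Il10ra* was 59.2% ± 3.67 with IL4+IL13 and 59.8% ± 2.83 with TNF (SD, n = 2), a mean difference of 0.54 ± 0.83 percentage points. Cells with at least 5 fragments held a mean of 99.0 and 125 CPM with IL4+IL13 against 76.6 and 94.2 CPM with TNF in mouse 1 and mouse 2.

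A shared direction across plates was common. Of all genes tested 22.8% were lower and 13% higher with TNF on 4 of 4 plates, and the plates of the treatments did not overlap for 11.4%. Of the 6 genes 3 were lower on 4 of 4 plates (*Il10*, *Il10ra* and *Il10rb*), 1 was higher (*Il1rn*), and the treatments did not overlap for *Il10* and *Il10rb*.

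*Il1rn*, the IL1 receptor antagonist, was higher with TNF on every plate. It went from 16.9 to 36.7 CPM on plate 02, from 12.3 to 39.8 on plate 03, from 5.61 to 31.8 on plate 04 and from 11.2 to 16.1 on plate 05. The rise ran from 1.44 times on plate 05 to 5.66 times on plate 04, both of mouse 2, and because of plate 05 the treatments overlapped. The log2 fold change was 1.54 ± 0.41 (adjusted p = 0.41), and 1.56 ± 0.16 (adjusted p = 0.014) with the mouse as a block, in edgeR's test; DESeq2 gave an adjusted p of 0.0079 and the plate block 0.041.

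More cells held *Il1rn* with TNF, most clearly at the higher cut. Cells with at least 5 fragments at equal depth went from 44 of 332 (13.3%, interval 9.80 to 17.4) to 101 of 303 (33.3%, 28 to 38.9) in mouse 1 and from 16 of 309 (5.18%, 2.99 to 8.27) to 53 of 306 (17.3%, 13.3 to 22) in mouse 2. The mean difference was 16.1 ± 5.61 percentage points (SD, n = 2; exact permutation p = 0.333). At 1 fragment the shares were 19.9% and 31.4% with IL4+IL13 and 42.2% and 35.3% with TNF in mouse 1 and mouse 2, and 83.5% of the positive cells of mouse 2 with IL4+IL13 held only 1 to 4 fragments, against 33.3% in mouse 1. The mean level in cells with at least 5 fragments was 118 and 138 CPM with IL4+IL13 and 114 and 126 CPM with TNF, so these cells were more numerous with TNF, with mean levels in the same range.

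**Figure D2:**
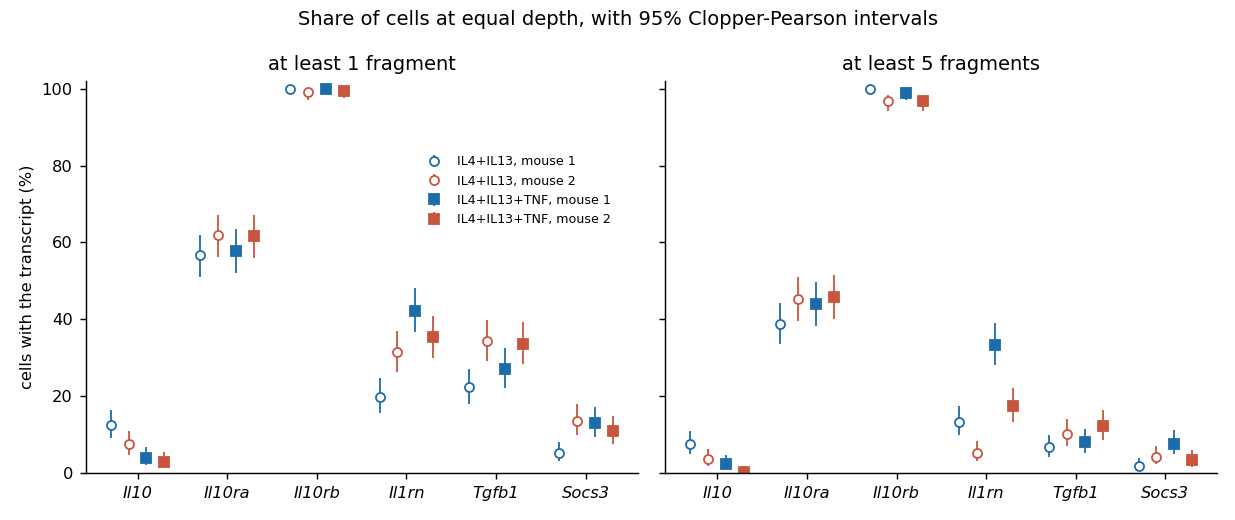
Share of cells (%) with at least 1 (left) and at least 5 (right) fragments of each gene after thinning every cell to the same depth; open circles are IL4+IL13, filled squares IL4+IL13+TNF, blue mouse 1 and red mouse 2, with 95% Clopper-Pearson intervals. *Il10* falls from 12.3% and 7.44% to 3.96% and 2.94%, *Il1rn* at 5 fragments rises from 13.3% and 5.18% to 33.3% and 17.3%, and *Il10ra* and *Il10rb* stay level.

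*Socs3*, the feedback inhibitor, moved in opposite directions in the mice. In mouse 1 it went from 0.84 to 4.13 CPM on plate 02 and from 1.39 to 4.33 on plate 03, whereas in mouse 2 it went from 3.66 to 2.36 on plate 04 and from 1.82 to 1.5 on plate 05. Its log2 fold change over both mice was 0.76 ± 0.64 (adjusted p = 0.87, and 0.56 with the block, edgeR). The treatment-by-mouse term over the 8 sums by plate was -2.43 ± 0.49, with an unadjusted p of 0.0046 and an adjusted p of 0.60 in edgeR. That test called 0 of 17026 genes (0% called, 1323 at an unadjusted p under 0.05), and DESeq2 called 110, with an adjusted p of 0.23 for *Socs3*. *Socs3*-positive cells went from 5.12% to 12.9% in mouse 1 and from 13.6% to 10.8% in mouse 2, and these levels rest on 199 to 689 fragments per sum.

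*Tgfb1*, the latent cytokine, had no common direction. It went from 2.10 to 4.18 CPM on plate 02, from 4.54 to 3.92 on plate 03, from 11.3 to 8.48 on plate 04 and from 8.58 to 6.46 on plate 05. The mice differed more than the treatments, with 3.32 and 4.04 CPM in mouse 1 and 10.0 and 7.47 CPM in mouse 2. The log2 fold change was -0.12 ± 0.61 (adjusted p = 0.99), and 0.02 ± 0.28 with the block (adjusted p = 0.98), in edgeR's test. A single well left out by the filters, from mouse 1 and plate 03 with TNF, held 2318 *Tgfb1* fragments, which is 77.3% of the *Tgfb1* of that set with no filter, and the log2 fold change with no cell filter was 0.99 (adjusted p = 0.80).

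The treatment-by-mouse terms of *Il10* (-0.19 ± 0.46, adjusted p = 0.95) and *Il1rn* (0.08 ± 0.71, adjusted p = 0.98) did not pass edgeR's test.

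**Figure D3:**
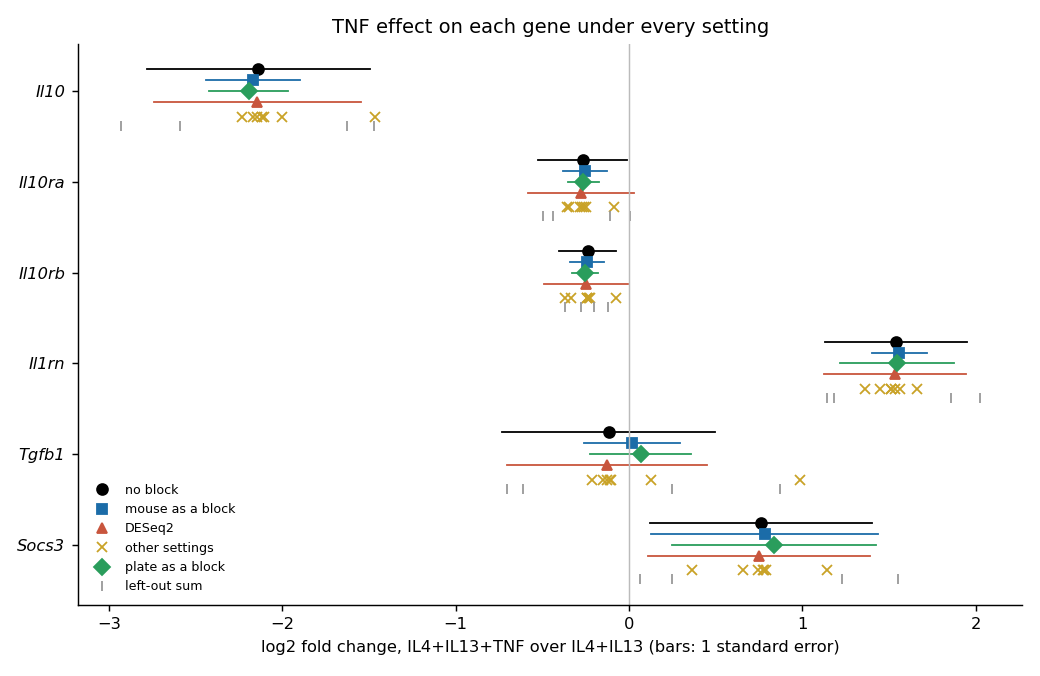
Log2 fold change of IL4+IL13+TNF over IL4+IL13 for each gene without a block, with the mouse or plate as a block, with DESeq2, under other settings and with each of the 4 sums left out (bars, 1 standard error where drawn). *Il10* runs from -2.93 to -1.47 and *Il1rn* from 1.14 to 2.02 over the alternatives, while *Tgfb1* spans 0.

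**Figure D4:**
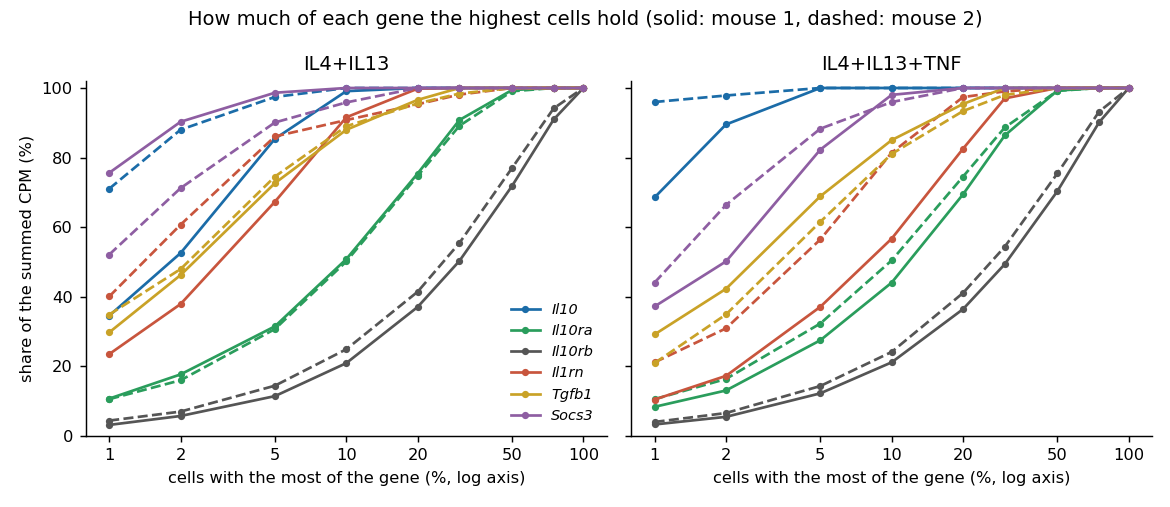
Share of each gene's summed CPM (%) held by the cells with the most of it (log axis, % of cells), for IL4+IL13 (left) and IL4+IL13+TNF (right); solid lines are mouse 1 and dashed lines mouse 2. *Il10* and *Socs3* rise steeply, *Il10rb* is the most evenly spread, with 11.4% to 14.4% in the top 5% of cells, and in both mice the *Il1rn* line lies lower with TNF than without.

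Transcripts differed in how they were spread over cells. The 5% of cells with the most *Il1rn* held 67.3% and 86.1% of it with IL4+IL13 and 37.1% and 56.4% with TNF in mouse 1 and mouse 2. For *Il10ra* the same share stayed between 27.5% and 32.3%, and for *Socs3* between 82.3% and 98.6%. The 6 genes were nearly unrelated to each other across cells: within each mouse and treatment, at equal depth, the mean rank correlation of the 15 pairs ran from -0.03 (*Il10rb* and *Socs3*) to 0.08 (*Il10* and *Il1rn*), as a description of cells that share libraries and plates.

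The genes with the most similar pattern across cells, among 10107 compared, were also only weakly alike. For *Il10* they were *Pf4*, a platelet-factor chemokine (mean rank correlation 0.12), *Zmynd11* (0.11) and the integrin *Itga6* (0.11). For *Il10ra* they were *Gmfg* (0.14), *Btg2* (0.13) and the complement receptor *C3ar1* (0.13), and for *Il10rb* *Ms4a7* (0.21), the inhibitory receptor *Sirpa* (0.20) and *Dhrs3* (0.20). For *Il1rn* they were *Gm7931* (0.12), the adaptor *Lcp2* (0.12) and the heme oxygenase *Hmox1* (0.10). For *Tgfb1* they were *Rps21*, *Vat1* and *CT010467.1* (0.14 each), and for *Socs3* the immediate early gene *Ier3* (0.13), *Sbno2*, itself an IL10 response gene (0.12), and *Eps8* (0.11).

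Around the 6 genes, 8 pathway lists held 106 genes, of which 83 were tested. In edgeR's test with the mouse as a block 9 of these rose and 5 fell, which is 16.9% of those tested against 3.82% of all genes, and edgeR called none without the block. The lists were chosen with earlier results of these data known, so the larger share is a description and not a test. DESeq2, also without a block, called 9 up and 4 down, among them *Bcl3* (log2 fold change 1.12, adjusted p = 0.037), which the block fit did not call, but not *Csf3r* or *Il6ra*. The adjusted p given for a gene of these lists is from the block fit.

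The signalling chain below the receptor did not pass the test: 0 of 8 genes rose or fell, with a median log2 fold change of -0.10 against 0.00 over all genes. *Jak1*, the kinase of IL10RA, was at 156 and 224 CPM with IL4+IL13 and 144 and 192 CPM with TNF in mouse 1 and mouse 2. *Stat3* was at 74.3 and 112 against 55.6 and 97.9 CPM, and the phosphatase gene *Ptpn6* at 256 and 223 against 326 and 234 CPM.

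Of 13 tested IL10 response genes 1 rose and 2 fell. *Tnip3*, an inhibitor of NF-κB signalling, rose from 151 and 177 CPM to 411 and 415 CPM (log2 fold change 1.43, adjusted p = 0.0082). *Cd163*, the haemoglobin scavenger receptor, fell by 1.67 on the log2 scale, from 19.6 and 21.9 CPM to 5.79 and 6.51 CPM (adjusted p = 0.018). *Fcgr1*, the high-affinity Fc receptor, fell by 1.73, from 70.0 and 69.2 CPM to 19.2 and 20.1 CPM (adjusted p = 0.0080). Among the most abundant others, *Zfp36*, which destabilises cytokine mRNA, had a log2 fold change of -0.41 (adjusted p = 0.13), *Hmox1* 0.64 (0.058), and *Dusp1*, a MAP kinase phosphatase, 0.48 (0.44).

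Regulators of *Il10* transcription did not pass the test either, with 0 of 14 called in each direction. *Maf*, an activator of *Il10* in macrophages, was at 178 and 190 CPM with IL4+IL13 and 64.4 and 115 CPM with TNF (log2 fold change -1.0 ± 0.19, adjusted p = 0.062). *Bhlhe40*, a repressor of *Il10*, was at 114 and 181 against 229 and 236 CPM (0.79 ± 0.17, adjusted p = 0.076). *Nfkb1* (0.63, adjusted p = 0.056) and the kinase gene *Mapkapk2* (0.54, adjusted p = 0.058) also stayed above the threshold.

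Other cytokines and receptors of the IL10 family were close to absent. Of 9 genes 8 were too low to test, each found in under 1% of cells, among them *Il19*, *Il20*, *Il22* and *Il24*. *Il20rb*, a receptor chain for IL20-type cytokines, rose from 1.98 and 0.84 CPM to 8.49 and 14.1 CPM (log2 fold change 3.15 ± 0.53, adjusted p = 0.046).

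Of 11 tested genes of the IL1 axis besides *Il1rn* 1 rose. *Il18bp*, a secreted inhibitor of IL18, rose from 8.17 and 12.4 CPM to 17.8 and 28.9 CPM (log2 fold change 1.26 ± 0.17, adjusted p = 0.027). *Casp1*, the protease that matures IL1B, was at 206 and 172 against 227.4 and 210.0 CPM (0.31, adjusted p = 0.17), and the kinase genes *Irak1* (-0.25, adjusted p = 0.37), *Irak3* (0.06, 0.89) and *Irak4* (0.03, 0.92) did not pass the test.

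In the TGFb axis 1 of 22 tested genes rose and 1 fell. *Smurf1*, a ubiquitin ligase for SMAD proteins, rose from 17.7 and 16.2 CPM to 36.4 and 49.9 CPM (log2 fold change 1.42 ± 0.19, adjusted p = 0.026). *Tgfbi*, a matrix protein induced by TGFB, fell by 1.27, from 290 and 224 CPM to 114 and 85.5 CPM (adjusted p = 0.0088). *Nrros*, which holds latent TGFB1 on myeloid cells, was at 317 and 286 against 307 and 238 CPM (-0.06, adjusted p = 0.79), *Ski* had a log2 fold change of -0.49 (adjusted p = 0.085) and *Tgif1* of 0.25 (0.43).

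The relatives of *Socs3* split. *Socs2* rose from 1.82 and 2.20 CPM to 11 and 24.5 CPM (log2 fold change 3.13 ± 0.30, adjusted p = 0.014) and *Cish* from 1.24 and 2.94 CPM to 7.05 and 11.7 CPM (2.34 ± 0.27, adjusted p = 0.019), both feedback inhibitors of STAT5-type signalling. The other 5 of 7 did not pass: *Socs1* was at 59.2 and 35.0 against 50.4 and 30.9 CPM, and *Socs6*, the most abundant, at 93.6 and 145 against 57.5 and 89.4 CPM (-0.61, adjusted p = 0.051).

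Among ligands and receptors that SOCS3 restrains 3 of 7 tested genes rose and 2 fell. *Il6* rose from 0.45 and 0.22 CPM to 7.65 and 14.7 CPM (log2 fold change 5.13 ± 0.57, adjusted p = 0.018), but was found in only 4.91% of cells of both treatments together. The filter asked for at least 5% of cells of either treatment, so *Il6* entered the test through 1 treatment only. The receptor genes *Csf3r* (from 13.2 and 42.1 to 39.0 and 79.8 CPM, adjusted p = 0.030) and *Il11ra1* (from 59.8 and 61.4 to 112 and 98.1 CPM, adjusted p = 0.028) rose as well. *Lifr* fell by 2.69 on the log2 scale, from 40.8 and 50.4 CPM to 4.01 and 10.8 CPM (adjusted p = 0.018), and *Il6ra* fell by 0.94, from 46.5 and 92.4 to 23.9 and 42.7 CPM (adjusted p = 0.025). The shared subunit *Il6st* was at 86.3 and 150 against 65.1 and 104 CPM (-0.38, adjusted p = 0.14).

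Cells with *Il10* were then compared with cells without it inside each mouse and treatment, 41 against 291, 23 against 286, 12 against 291 and 9 against 297 cells at equal depth. The kinds of cell had similar depth: median fragments were 490277 against 485555 and 501239 against 484004 with IL4+IL13, and 475470 against 463987 and 445674 against 512099 with TNF. No gene passed edgeR's test with the set as a block (0% of 16446 genes called, 783 at an unadjusted p under 0.05, smallest adjusted p 0.95), whereas DESeq2 called 152, of which 81 were higher.

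None of the other 5 genes separated the kinds of cell. *Il1rn* was at 31.1 against 13.8 CPM and 23.5 against 6.99 CPM in positive and negative cells with IL4+IL13, at 52.6 against 37.9 CPM with TNF in mouse 1, and at 4.59 against 23.1 CPM with TNF in mouse 2, where 9 cells were positive. It was higher in 3 of 4 sets (log2 fold change 0.45 ± 0.70, adjusted p = 0.99). *Il10ra* was higher in 3 of 4 sets (0.22 ± 0.20, adjusted p = 0.98), *Il10rb* had a log2 fold change of -0.09 ± 0.13, *Tgfb1* of -0.45 ± 0.84 and *Socs3* of -1.17 ± 1.26, with adjusted p of 0.99 each.

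Marker lists of macrophage states gave a profile of *Il10*-positive cells, as a description. In the interferon list 5 of 7 genes were higher in 4 of 4 sets, against 4.69% of all genes tested, and the median log2 fold change was 1.40 against -0.10 over all genes. The 5 were *Ifit1*, *Ifit2*, *Ifit3*, *Isg15* and *Rsad2*, antiviral genes named after their values were seen. *Ifit3*, an interferon-induced protein, was at 106 against 53.0 and 99.7 against 38.9 CPM with IL4+IL13 and at 219 against 26.0 and 89.5 against 28.5 CPM with TNF. Its log2 fold change was 1.77 ± 0.36, with an adjusted p of 0.95 in edgeR and 0.00099 in DESeq2.

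These sums lean on few cells. A single cell held 87.2% of the *Ifit3* fragments of the 12 positive cells of mouse 1 with TNF, whose median cell was at 0 CPM, and 96.9% of their *Ifit1* fragments. *Ifit1* was found at 5 or more fragments in a larger share of positive than negative cells in only 2 of 4 sets, at 53.7% against 37.5% and 17.4% against 30.1% with IL4+IL13 and at 25% against 29.9% and 44.4% against 33.0% with TNF. For *Rsad2*, an antiviral enzyme, a single cell held 97.6% of the fragments of the 12 positive cells of mouse 1 with TNF, and 63.9%, 80.1% and 56.7% in the other sets of positive cells. Counted by cells with at least 5 fragments, *Rsad2* was found in 23 of 41 positive cells (56.1%, interval 39.7 to 71.5) against 107 of 291 negative (36.8%, 31.2 to 42.6) and in 9 of 23 (39.1%, 19.7 to 61.5) against 81 of 286 (28.3%, 23.2 to 33.9) with IL4+IL13. With TNF it was found in 5 of 12 (41.7%, 15.2 to 72.3) against 64 of 291 (22%, 17.4 to 27.2) and in 3 of 9 (33.3%, 7.49 to 70.1) against 65 of 297 (21.9%, 17.3 to 27.0). The share of *Rsad2* was higher in positive cells in 4 of 4 sets, and the intervals overlapped in each. *Isg15* was low, at 1.37 against 1.28 and 1.80 against 1.29 CPM with IL4+IL13. With TNF it was at 3.20 against 1.14 and 5.90 against 0.86 CPM. In each set of positive cells 1 cell held 5 or more *Isg15* fragments, and a single cell held 42.1% to 94.4% of them.

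In the antigen-presenting list the median log2 fold change was -0.83, with 7 of 7 genes below 0, but each of them was higher in positive cells in 1 of 4 sets. In the M2 list 2 of 7 genes, *Mrc1* and *Mgl2*, were higher in 4 of 4 sets, against 4.69% of all genes tested. The median log2 fold change of that list was 0.03 against -0.10 over all genes. *Clec10a* was higher in 3 of 4 sets, *Arg1* in 2, and *Retnla* and *Apoe* in 1 each. *Chil3*, found in 8.87% of cells, was lower in 4 of 4 sets. It was at 0.072 against 0.58 and 0.26 against 4.42 CPM with IL4+IL13 and at 0 against 11.4 and 0.33 against 14.6 CPM with TNF. Cells holding *Chil3* were not counted by *Il10* status, and a gene held by few cells can read low in small positive sets by sampling. In the C1q-high list 3 of 10 genes were higher in 4 of 4 sets, *C1qb*, *C1qc* and the mannose receptor *Mrc1*, the last at 1590 against 1133 and 1603 against 1263 CPM with IL4+IL13 and at 647 against 526 and 737 against 696 CPM with TNF. In the cycling list 3 of 8 were, *Mki67*, *Top2a* and *Birc5*. The share over all genes tested, 4.69%, stands beside the C1q-high and cycling counts as well. *Mrc1* is counted in both the M2 and the C1q-high list, and no gene of these lists passed edgeR's test. In the *Gpnmb*-high list 5 of 8 genes were lower in 4 of 4 sets, against 10.3% of all genes tested: *Gpnmb*, *Fabp4*, *Spp1*, *Trem2* and *Cd9*, a membrane tetraspanin at 1054 against 1557 and 1301 against 1712 CPM with IL4+IL13 and at 1126 against 1832 and 1067 against 1599 CPM with TNF. *Trem2*, with a log2 fold change of -0.10, lay at the median of all genes, also -0.10. *Spp1* was at 3500 against 3644 CPM in mouse 1 with IL4+IL13. These genes were likewise picked out after their values were seen.

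Of 3 tested dendritic cell markers 2 were lower in *Il10*-positive cells in 4 of 4 sets, against 10.3% of all genes tested. Neither passed edgeR's test (adjusted p of 0.95 each). *Ccr7*, a chemokine receptor of migrating dendritic cells, was at 0.25 against 18.8 CPM and 1.64 against 200.2 CPM with TNF, but nearly even with IL4+IL13, at 0.14 against 0.15 and 0.26 against 0.46 CPM. *Zbtb46*, found in 7.29% of cells, was at 0 against 0.53 and 1.41 against 3.20 CPM with IL4+IL13 and at 0 against 1.68 and 0 against 6.0 CPM with TNF. Only 12 and 9 cells were *Il10*-positive with TNF, so a gene held by few cells can read low or 0 there by sampling. Cells holding *Ccr7* or *Zbtb46* were not counted by *Il10* status, so these values do not establish a difference. *Flt3* was even, at 6.23 to 7.55 CPM in every set and kind of cell. The part of cells with these markers in the fall of *Il10* with TNF was not tested.

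**Figure D5:**
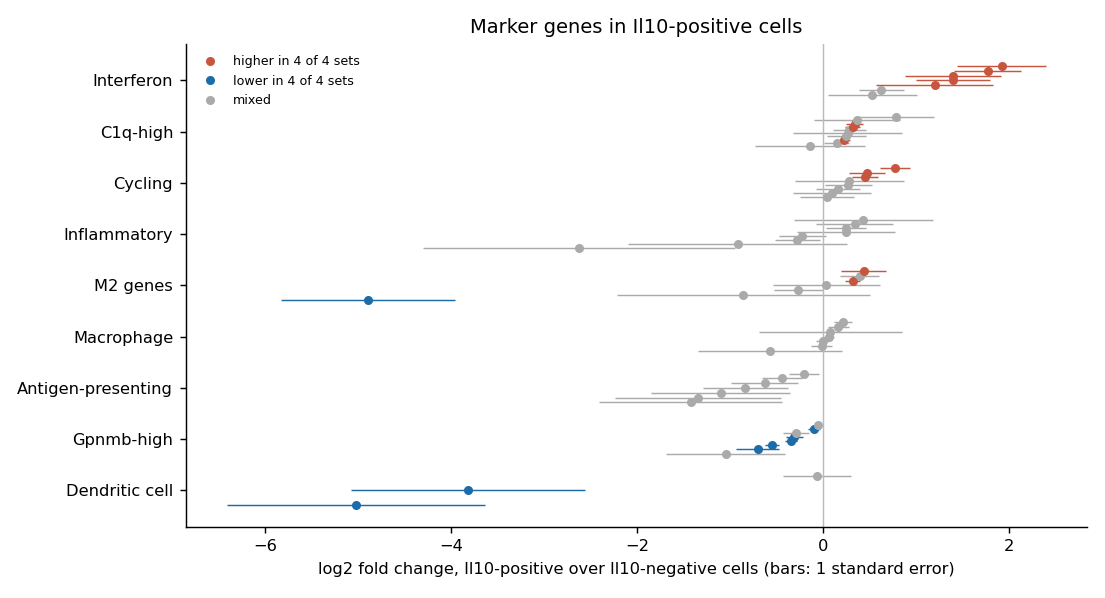
Log2 fold change of *Il10*-positive over *Il10*-negative cells for each marker of 9 lists (bars, 1 standard error), with genes higher in 4 of 4 sets in red, lower in 4 of 4 in blue and mixed in grey. Interferon genes lie to the right (median 1.40) and most *Gpnmb*-high genes lie to the left; no gene passed edgeR's test.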

How the data were processed

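Single BMDMs were profiled with Smart-seq2. The authors aligned fragments to mm10 with gsnap and counted uniquely mapped fragments per Ensembl gene with featureCounts 1.6.3, without strand; the submitters' processing notes also name bcl2fastq 2.19.1 and Seurat 3. The deposited values are raw counts, not normalized, for 55421 genes, of which 55154 matched a symbol, and for 92 spike-ins, whose rows did not enter the totals. Fragments per sorted well ranged from 4607 to 6122892. 8 columns that match no sample were not used, and 4 samples whose labels give no mouse were not assigned.

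Wells more than 3 median absolute deviations below their plate's median in log total or genes, or above it in mitochondrial (37 genes) or spike-in share, were left out, 138 in all. A fixed filter kept 1520. No doublet caller was run, since cells were sorted singly. CPM were computed from sums over cells.

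Counts of each mouse under each treatment were summed, and edgeR 4.0.16 was used to test the sums (quasi-likelihood, TMM, Benjamini-Hochberg, threshold 0.05) in R 4.3.3, on genes in at least 5% of cells of either treatment that pass filterByExpr. The series names 2 mice and the titles carry the numbers 1 and 2, which were read as the mouse, so both treatments of a number were paired; their deviations from the treatment means correlated over 17034 genes (r = 0.57). Alternatives used DESeq2 1.42.0, limma 3.58.1 on log2(CPM + 1), other scalings, filters and left-out sums. *Il10*-positive cells held at least 1 *Il10* fragment at equal depth. The fits were tested on simulated data with 200 changed genes. Changes of 1 and 2 on the log2 scale were recovered in 18% and 78% of cases without a block, with 18 false calls. With the mouse as a block these were 67% and 94% (10 false calls), for *Il10* status 19% and 61% (5), and for treatment by mouse 21% and 57% (0). A change that did not pass can thus have been missed.

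The genes, lists and tests were chosen with earlier results of these data known. Named were the 6 genes, list genes past the threshold with or without the block and up to 4 more of the highest mean CPM in a list, and the 3 genes most alike to each (found in at least 25% of cells). The values of 1 list gene are not reported here. Python 3.11.15, numpy 2.4.6, pandas 2.3.3, scipy 1.17.1 and matplotlib 3.10.9 were used.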

Additional observations from a re-analysis of the deposited data

Results flagged for a closer look

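*Socs3* moved in opposite directions in the mice, higher with TNF on 2 of 2 plates of mouse 1 and lower on 2 of 2 plates of mouse 2. The treatment-by-mouse term was -2.43 on the log2 scale (edgeR, unadjusted p = 0.0046, adjusted p = 0.60), so the difference did not pass the correction over all genes. The cells of a mouse share a culture and a pair of plates, so mouse, experiment, culture and plate cannot be told apart.

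The share of cells with *Il10rb* on plate 05 with TNF, 98.8%, lay apart from the other 3 plates, which were at 100%. With 3 plates at the ceiling any miss stands apart; here it was 2 of 161 cells, and plate 04 with IL4+IL13 was also at 98.8% (160 of 162 cells). It was the only such value among 24 groups of 4 plates examined for the 6 genes, and chance flags about 1 in 20 groups.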

How the results depend on the processing

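The direction of *Il10*, *Il10rb* and *Il1rn* held in 14 of 14 alternatives. *Socs3*, at 0.76, kept its sign but ranged from 0.064 without IL4+IL13+TNF replicate 1 to 1.55 without IL4+IL13 replicate 2, and its log2 ratio in mouse 2 alone was -0.54. The replicate block (mouse), DESeq2 and plate sums with plate as block brought *Il10* (-2.17, -2.14, -2.19) and *Il1rn* (1.56, 1.54, 1.55) past the threshold; adjusted p ran from 0.0054 to 1.00 for *Il10* and from 0.0079 to 1.00 for *Il1rn*, highest with the spike-in total as library size, which moved the median of all genes to 0.15. The blocked fit changed no other call among the 6 genes. The same settings and the spike-in total gave 651, 598, 1683 and 12 genes changed by TNF against 1 without them, and leaving out a sum gave 4 to 30; the cause was not tested. *Tgfb1* had the opposite sign with the replicate block (0.020), the spike-in total (0.13), no cell filter (0.99), plate sums (0.068) and, without IL4+IL13+TNF replicate 1 or IL4+IL13 replicate 2, in a range of -0.70 to 0.87 over left-out sums; *Il10ra* ranged from -0.50 to 0.0043, the latter without IL4+IL13 replicate 2, where the lone sum left in a treatment is assumed to vary like the others. DESeq2 called 152 genes in *Il10*-positive cells and 110 between the mice, against 0 and 0. In *Il10*-positive cells *Tgfb1* turned to 0.19 without thinning, and over left-out sets it ranged from -1.11 to 0.27, *Il10rb* from -0.17 to 0.049 and *Il1rn* from -0.066 to 1.14. With positive cells set at 5 or more *Il10* fragments, *Il10rb* moved from -0.092 to -0.84 and *Socs3* from -1.17 to -2.96. At that cut mouse 2 with TNF held 1 positive cell. The difference in share of *Il10ra* was -1.50 percentage points without thinning and 2.74 at 5 fragments, and that of *Il10rb* -0.14 and -0.51. In all 165 of 196 alternative values stayed the same by a rule set for each kind of value. Fold changes kept their sign and side of the threshold, and gene counts stayed within 1.5 times. Shares of cells moved by less than the SD of the difference between treatments over the mice, whatever their sign. The *Il10rb* share with no cell filter, at -0.039 percentage points against 0.16, thus counts as the same. Low genes such as *Socs3* rest on few fragments and few cells. The p-values of fits on sums by mouse and treatment reflect the spread between 2 mice. Those of fits on sums by plate reflect the spread between plates, and those for *Il10* status the spread between sets of mouse and treatment.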

Other observations

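In 3 wells with IL4+IL13 whose labels name no mouse, on plates 03, 04 and 05, *Il10* was counted at 0, 6 and 1 fragments of 279461, 354874 and 87198, *Il10rb* at 72, 72 and 22 and *Il1rn* at 12, 2 and 0. *Socs3* was counted at 1, 0 and 0 fragments and *Tgfb1* at 2, 1 and 4.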
